A study of Mus musculus with 4 samples.

Results

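Ribosomal protein genes encode the protein part of the cytosolic ribosome, the particle that translates mRNA. The probes examined were all non-control probes of a 1-colour Agilent mouse array whose gene name is Rpl, Rps or Rplp followed by a number, which leaves out the Rps6k kinases and pseudogene names. The rule found 188 of 55681 non-control probes and 83 of 34650 gene names: 112 probes for 47 Rpl genes of the large subunit, 70 probes for 33 Rps genes of the small subunit, and 6 probes for the 3 stalk genes Rplp0, Rplp1 and Rplp2. Of these genes 61 had at least 2 probes, and Rpl17 had 7.

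The arrays compared 4 genotypes of LSK cells, the lineage-negative, Sca-1-positive, Kit-positive bone marrow fraction that holds haematopoietic stem cells and multipotent progenitors. Each recipient had been lethally irradiated and given E14.5 fetal liver cells, and the background strain was C57B6. The donor cells were TET2 knock down (TET2KD, taken 10 weeks after transplantation), JAK2V617F transgenic (16 weeks), double mutant with both lesions (13 weeks) or wild type (WT, 16 weeks). The design text gives 5 mice per genotype and each genotype has 1 array, and whether the mice were pooled is not given in the sources used here. How TET2 was knocked down and which promoter drives the JAK2V617F transgene are likewise not given there. The weeks after transplantation are the same for JAK2V617F and WT (16). In every other comparison they differ and cannot be told apart from the genotype. With 1 array per genotype there is no replicate error, so the differences between pairs of arrays have no p-value and are described by their size. An additive model over all 4 arrays, given further on, has 1 residual degree of freedom. Repeated spots of 1 probe on 1 array had an SD of 0.156 (log2) over 232 to 261 probes per array. That SD does not cover differences between mice or RNA preparations.

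TET2 is an enzyme that oxidises methylcytosine in DNA, and JAK2V617F is an active form of the JAK2 kinase found in human myeloproliferative neoplasms. Ribosomal protein mRNAs are among the most abundant of a growing cell. Most of them begin with a pyrimidine-rich tract, the 5′ terminal oligopyrimidine (TOP) motif, through which mTOR signalling and the RNA-binding protein Larp1 control their translation. In blood formation a shortage of a single ribosomal protein is known to impair red cell production: mutations in human ribosomal protein genes cause Diamond-Blackfan anaemia, and loss of 1 RPS14 copy contributes to the 5q- syndrome. Free Rpl5, Rpl11 and Rpl23 can bind the p53 regulator MDM2.

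Every ribosomal protein probe is 60 bases long, and 187 carry a position on the mm9 build in the deposited files. Levels on the array depend on where along a transcript a probe sits, so the sequences of the probes on which the results turn are shown first. For Rps24, which encodes a small-subunit protein, 1 probe covers bases that 3 RefSeq transcripts share and lies across an intron at chr14:25311190-25312666 on the plus strand. A second probe, at chr14:25312695-25315015 on the plus strand, is paired in the files with 1 of these 3 transcripts and a predicted one, and its first 30 bases hold a TGA stop codon in the frame of its first base, shown in capitals.
Rps24 A_55_P1993880: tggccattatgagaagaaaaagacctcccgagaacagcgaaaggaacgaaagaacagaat
Rps24 A_55_P1955243: aatgttggtgctggcaaaaagTGAgtggag

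For Rpl13a, a large-subunit protein also known to repress translation of inflammatory mRNAs in human monocytes, 1 probe reads bases at chr7:52381388-52381529 on the minus strand. A pair of further probes lies downstream of it and shares a run of 26 bases, given below for the probe at chr7:52381146-52381205 on the minus strand. For Rpl30, another large-subunit protein, 1 probe at chr15:34372403-34372462 on the minus strand is paired with 3 RefSeq transcripts, and another at chr15:34372831-34372890 on the minus strand with 1 of them, for which the first 30 bases are given.
Rpl13a A_55_P2058953: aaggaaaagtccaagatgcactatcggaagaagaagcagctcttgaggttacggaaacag
Rpl13a, shared by A_55_P2101910 and A_55_P2052613: tagagagctgacagcgcaccacctgc
Rpl30 A_55_P2104941: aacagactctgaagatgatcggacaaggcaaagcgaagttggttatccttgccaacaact
Rpl30 A_66_P125437: tagctggtgtttgacgctctggattataat

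The last set holds the probes of Rpl22, Rpl8 and the paralog Rps27l. Capitals mark the first stop codon in 1 chosen reading frame of Rpl22 A_55_P2015989, Rpl8 A_66_P139116 and Rps27l A_51_P246903. Rpl22 A_52_P391718 and Rpl8 A_55_P1965571 were left unmarked. In the bases shown, only 1 reading frame of each is free of stop codons. The Rpl22 probes lie at chr4:151706515-151706574 and further downstream at chr4:151708012-151708071, the Rpl8 probes at chr15:76736310-76736369 and chr15:76736671-76736730, and the Rps27l probe across an intron at chr9:66795486-66797176, all on the plus strand. For the Rpl22 probes the first 30 bases are given, and for Rps27l the first 51.
Rpl22 A_55_P2015989: ggaggaagacgaggatTAGgacacattggt
Rpl22 A_52_P391718: gctgtaaacaacattaaccctgggttgatt
Rpl8 A_55_P1965571: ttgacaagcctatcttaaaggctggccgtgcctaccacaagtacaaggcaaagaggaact
Rpl8 A_66_P139116: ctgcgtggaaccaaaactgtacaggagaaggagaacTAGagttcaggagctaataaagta
Rps27l A_51_P246903: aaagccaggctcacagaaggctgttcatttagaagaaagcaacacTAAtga

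Levels are given as log2 of the processed signal relative to the array's own 75th percentile, so 0 is the 75th percentile and each unit is a factor of 2. A probe counted as measured on an array when the scanner software called it well above background. Of the 188 probes, 181 were above background on all 4 arrays, and 3 (Rpl3l, Rpl39l and 1 of the 2 Rpl10l probes) were above background on none. The median level of the ribosomal protein probes was 6.01 on the TET2KD array, 6.02 on JAK2V617F, 5.87 on the double mutant and 6.27 on WT. The median over all non-control probes was -2.63, -2.63, -2.62 and -2.65 in the same order. Between 174 and 177 of the 188 probes were above the 75th percentile of their array. The files place 11 probes of 5 genes (Rpl13, Rpl36, Rps27, Rps29 and Rps4x) on another chromosome than the RefSeq table (GRCm38.p6) gives for the gene, and processed copies of ribosomal protein genes are common in the mouse genome, so which copy gave a single probe's signal is uncertain.

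The arrays as a whole held between 49.4% (TET2KD) and 54.7% (JAK2V617F) of probes above background, and no spot was saturated. Of 3 Tet2 probes, 2 were above background on all 4 arrays: A_55_P2051405 stood at -0.72 in TET2KD, 0.70 in JAK2V617F, 0.43 in the double mutant and 1.16 in WT, and A_55_P2081303 at 1.23, 2.14, 1.36 and 2.06. Both were lower on the 2 arrays with the knock down than on the WT array, and the first was also lower in JAK2V617F. The third, A_55_P2074075, was above background in the double mutant only, at -1.77, and was higher there than in WT by at least 1.24 (log2). Among the LSK markers, Kit, Ly6a, Cd34 and Flt3 were above background on all 4 arrays and Slamf1 on none. Markers of other blood cells differed between the arrays. The summed scaled signal of 5 B cell markers was 0.974 in TET2KD, 1.25 in JAK2V617F and 0.741 in double mutant cells, against 18.3 in WT, most of it Cd79a. Of these 5 markers, 3 were above background on no array, Ms4a1 and Ebf1 among them. The sum over 5 erythroid markers was 23.2, 0.798 and 10.6, against 1.46 in WT. The sum over 7 neutrophil markers was 92.9, 21.1 and 64.9, against 64.8 in WT. The sum over 4 plasma cell markers was 13.0, 5.74 and 11.01, against 3.81 in WT. The sum over 5 megakaryocyte markers was 8.16, 8.35 and 2.42, against 2.75 in WT. Above background on all 4 arrays were 2 of the 5 erythroid, 5 of the 7 neutrophil, 2 of the 4 plasma cell and 3 of the 5 megakaryocyte markers. Of the erythroid markers 1 was above background on no array. The T cell markers summed to 4.72 to 6.18, with Cd3d, Cd3g and Cd8a above background on no array, and the macrophage markers to 28.6 to 33.8 across the arrays. The part of such cells in the ribosomal protein levels was not tested. Fewer cells of a type and less RNA per cell cannot be told apart in such samples.

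The ribosomal protein probes moved together and by little in every mutant. In TET2KD cells the median difference from WT was -0.26 (SD over probes 0.42, 182 probes), a 1.20-fold lower level, and 169 of the 182 probes lay below WT. In JAK2V617F cells the median was -0.17 (SD over probes 0.44, 184 probes) and 142 lay below WT. In double mutant cells it was -0.29 (SD over probes 0.47, 185 probes) and 162 lay below WT. The medians over all tested probes were -0.03, -0.01 and -0.00, and 51.5%, 50.5% and 50.2% of all tested probes lay below WT. Of the 182 ribosomal protein probes with a value in all 3 comparisons, 136 (74.7%) were below WT in each, against 33.4% of all 29908 such probes. These comparisons share the WT array, so they are not independent. Of the 160 ribosomal protein probes with a mean level over the arrays of at least 3, a cut chosen after the data were seen, 127 were highest in WT, and the lowest array was TET2KD for 72, JAK2V617F for 6, the double mutant for 77 and WT for 5.

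Few of them passed a factor of 2, the size used here to call a difference. For TET2KD cells and WT, 3 ribosomal protein probes were at least 2-fold higher and 4 at least 2-fold lower, while over all tested probes the shares were 17.6% higher and 20.6% lower. For JAK2V617F cells and WT, 4 were higher and 3 lower, with 16.1% and 16.4% of all tested probes. For double mutant cells and WT, 5 were higher and 3 lower, with 16.3% and 17.5% of all tested probes. The share of ribosomal protein probes past 2-fold in either direction was thus 3.85%, 3.80% and 4.32%, under the background in each comparison. Bright probes differed less between arrays than dim ones: the SD of the differences was 0.34 in TET2KD for other bright probes and 1.40 for all tested probes. Among the 1655 probes at least as bright as the lower quartile of the ribosomal protein probes, 1.39%, 1.58% and 2.57% of the 1516 other probes passed 2-fold, and 0%, 0.719% and 0.719% of the 139 ribosomal protein probes did.

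**Figure D1:**
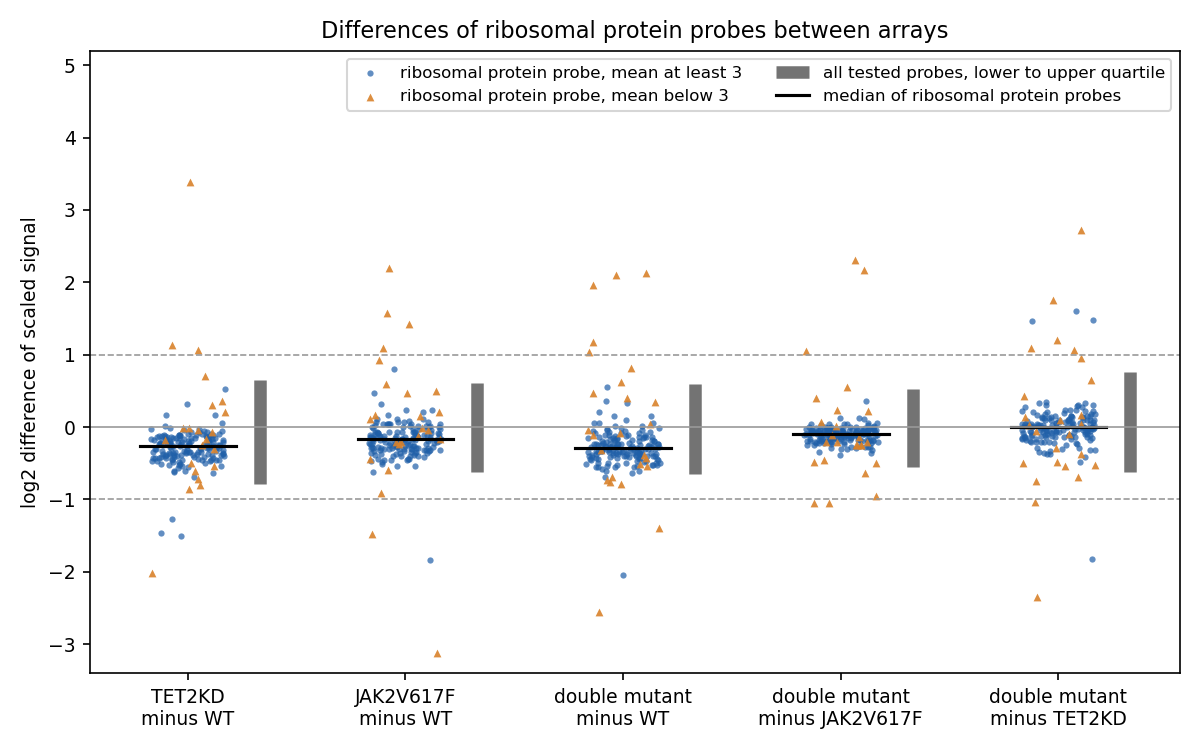
The log2 difference of scaled signal is plotted for every ribosomal protein probe in 5 comparisons (blue circles, mean level over the 4 arrays at least 3; orange triangles, mean below 3; black line, median). Grey bars run from the lower to the upper quartile of all tested probes and dashed lines mark a factor of 2. The circles form a narrow band below 0 in the 3 comparisons with WT, with medians of the circles from -0.30 to -0.18, and most points past the dashed lines are triangles.

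Other bright probes also lay below WT at the median, by less than the ribosomal protein probes. Among probes of like brightness, the median difference of the 139 ribosomal protein probes was -0.28 in TET2KD, -0.19 in JAK2V617F and -0.31 in double mutant cells, each against WT. The 1516 other probes had medians of -0.06, -0.05 and -0.11. Below WT lay 96.4%, 84.2% and 93.5% of the ribosomal protein probes and 56.7%, 60.2% and 67.1% of the others. The size of the shift depended on the scaling. With every array centred on the median of these bright probes, which moves the median of all tested probes to 0.13, 0.07 and 0.11, the median over all ribosomal protein probes became -0.09, -0.09 and -0.17 in the same order, with 68.1%, 67.9% and 77.3% of them below WT. Such centring moves all probes of a comparison by the same amount, so the gap between ribosomal protein probes and other bright probes stays as it was.

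**Figure D2:**
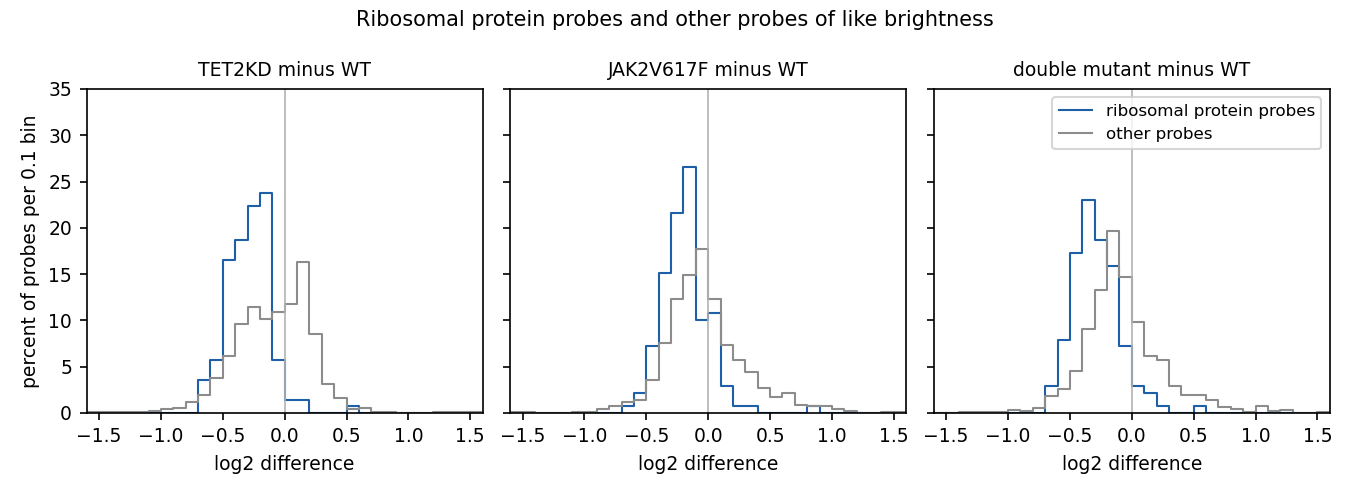
The percent of probes per bin of 0.1 is plotted against the log2 difference from WT for the 139 ribosomal protein probes (blue) and the 1516 other probes (grey) at or above the lower quartile of ribosomal protein brightness. The blue curves lie left of 0 in all 3 panels, with 96.4%, 84.2% and 93.5% of probes below WT, and are narrower than the grey ones.

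Each lesion was also read on a second background, with arrays that its comparison with WT did not use. In the double mutant against JAK2V617F, which adds the TET2 knock down, the median was -0.10 (SD over probes 0.31) and 158 of 185 ribosomal protein probes were lower. There 3 probes were at least 2-fold higher and 2 at least 2-fold lower, against 13.4% and 14.4% of all tested probes. In the double mutant against TET2KD, which adds JAK2V617F, the median was -0.00 (SD over probes 0.46) and 97 of 185 were lower. With arrays centred on bright probes, 63.8% of the 185 were lower. At the main scaling 8 probes were at least 2-fold higher and 3 at least 2-fold lower, against 19.4% and 17.6% of all tested probes. Of 182 probes, 147 were lower with the TET2 knock down both on the WT and on the JAK2V617F background (80.8%, against 27.0% of all probes). Among probes of like brightness, the double mutant against JAK2V617F gave a median of -0.09 with 89.2% lower for ribosomal protein probes, and of -0.07 with 67.4% lower for the others. With cyclic loess scaling, 62.2% of the 185 ribosomal protein probes were lower there, with a median of -0.04. For JAK2V617F, 83 of 184 were lower on both backgrounds (45.1%, against 26.6% of all probes). The double mutant level minus both single mutants plus WT, which is 0 where the log2 effects of the lesions add up, had a median of 0.16 over 185 ribosomal protein probes and 0.07 over all probes, and 140 of the 185 were above 0. That median was 0.03 with the arrays centred on bright probes and 0.22 with normexp background correction.

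**Figure D3:**
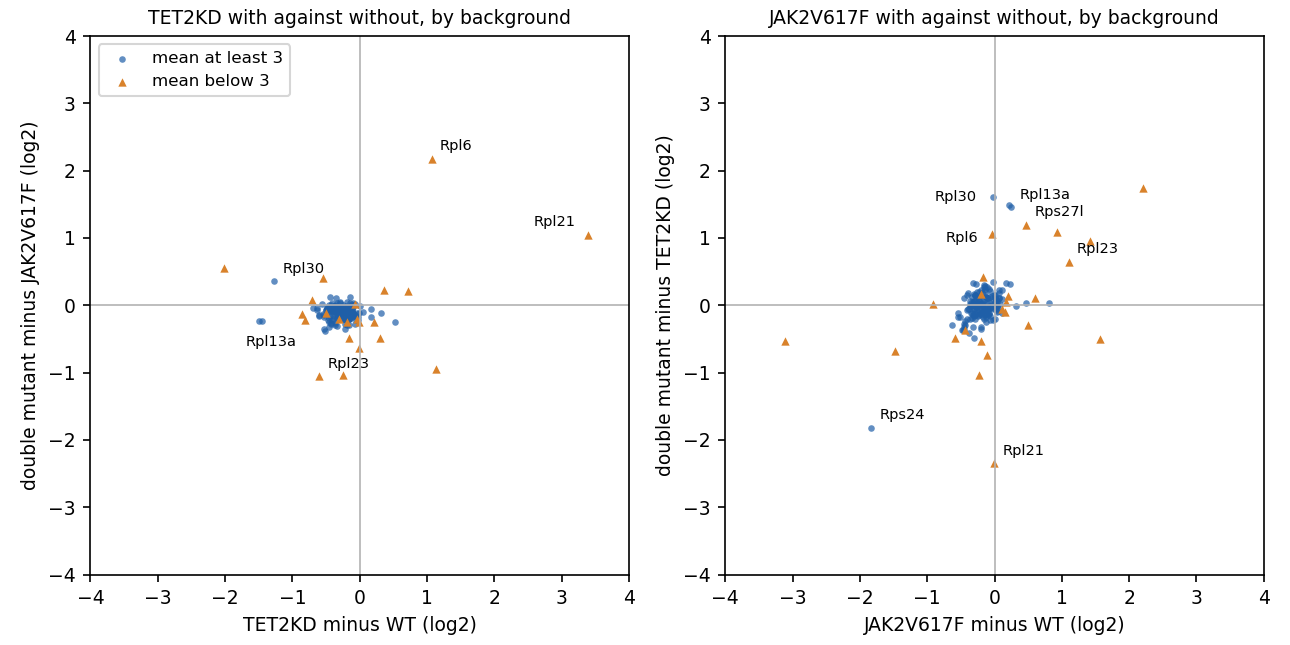
Each point is 1 ribosomal protein probe, with the log2 difference made by a lesion on the WT background on the x axis and on the other mutant background on the y axis (left, TET2 knock down; right, JAK2V617F). Circles have a mean level of at least 3 and triangles a lower one. Most points lie near the origin, with 147 of 182 in the lower left quadrant of the left panel and 83 of 184 in that of the right panel, and a labelled Rps24 probe is at least 2-fold lower on both axes of the right panel.

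An additive model of the 2 lesions, fitted with limma over all 4 arrays, leaves 1 residual degree of freedom. It called 0 of 37231 probes for the TET2 knock down (0% of all) and 0 for JAK2V617F (0%) at an adjusted p under 0.05 (limma, Benjamini-Hochberg). At an unadjusted p under 0.05 it held 1876 probes (5.04%) for TET2KD, of which 0 were ribosomal protein probes, and 2308 probes (6.20%) for JAK2V617F, of which 3 of 185 were. These 3 were probes of Rps15a, Rps24 and Rpl21, of which 1 (Rps24) was lower with JAK2V617F. The Rps15a and Rpl21 probes were higher, and both were below background on the WT and TET2KD arrays. The model used their measured values there.

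The small-subunit probes had somewhat lower medians than the large-subunit probes. The Rps median was -0.32 in TET2KD (69 probes), -0.25 in JAK2V617F and -0.35 in double mutant cells (70 probes each) against WT. The Rpl median was -0.24, -0.14 and -0.26 in the same order (108 probes in JAK2V617F and 109 in double mutant cells). The gap between the subunits was not tested. The stalk of the large subunit, which recruits elongation factors, had 6 probes with medians of -0.16, -0.07 and -0.20, and its genes differed among themselves. Rplp0, the stalk base often used as a reference gene, was measured by 3 probes, which lay between -0.09 and -0.02 in TET2KD, between 0.01 and 0.08 in JAK2V617F and between -0.15 and -0.05 in the double mutant. The 2 probes of Rplp1 were lower in every mutant, by -0.23 and -0.48 in TET2KD, -0.14 and -0.20 in JAK2V617F, and -0.28 and -0.25 in the double mutant. Rplp2 stood at 7.14 in TET2KD, 7.26 in JAK2V617F, 7.27 in the double mutant and 7.60 in WT, differences of -0.46, -0.34 and -0.33. Rpl41, the smallest large-subunit protein, stood at 9.16, 9.28 and 9.19, against 9.28 in WT.

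Some genes stood out in single comparisons by all of their probes. Rps10, near the mRNA entry of the small subunit, had A_55_P2051047 at 5.53 in TET2KD, 5.98 in JAK2V617F and 5.84 in double mutant cells, against 6.14 in WT. Rps28, another small-subunit protein, was at 7.26, 7.43 and 7.37, against 7.89 in WT, by A_55_P2027640. The TET2KD array held the lowest reading of every Rps10 and Rps28 probe. Rpl17, a large-subunit protein, had 7 probes that all were lower in the double mutant than in WT, by -0.76 to -0.37, and lower than in TET2KD, by -0.74 to -0.32. Rps6, the phosphorylation target of S6 kinase, differed by probe: A_55_P1955239 stood at 6.96 in TET2KD, 6.90 in JAK2V617F and 6.84 in double mutant cells, against 6.79 in WT, and A_55_P2008567 at 2.06, 2.01 and 1.52, against 2.21 in WT.

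Several of the larger differences came from single probes that departed from the other probes of their own gene. Within the 60 genes with at least 2 tested probes, the difference between a gene's highest and lowest probe had a median of 0.15 in TET2KD, 0.14 in JAK2V617F and 0.17 in double mutant cells, each against WT. It reached 1 or more in 6, 7 and 8 genes. The Rps24 probe paired with 1 of the 3 transcripts stood at 7.31 in TET2KD, 5.70 in JAK2V617F and 5.50 in double mutant cells, against 7.54 in WT. Both arrays with JAK2V617F were low and both without it high. The difference was -0.23 in TET2KD, -1.84 in JAK2V617F and -2.05 in double mutant cells, each against WT, while the double mutant differed from TET2KD by -1.82. The other 3 Rps24 probes lay between -0.43 and 0.05 in TET2KD, between -0.54 and -0.19 in JAK2V617F and between -0.54 and -0.29 in the double mutant. The probe that covers the bases shared by 3 transcripts stood at 6.03, 5.78 and 5.68, against 5.98 in WT. In the additive model the JAK2V617F term of the low probe was -1.83 (SE 0.47, limma adjusted p = 0.803). RPS24 splicing is known to differ between human tissues. Of the 160 ribosomal protein probes with a mean level of at least 3, this was the only 1 at least 2-fold different from WT in either genotype with JAK2V617F.

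In TET2KD the same 160 probes held 3 past 2-fold, all lower. Both downstream Rpl13a probes stood apart: A_55_P2101910 was at 2.52 in TET2KD, 4.23 in JAK2V617F and 4.00 in double mutant cells, against 4.02 in WT, and A_55_P2052613 at 2.05, 3.75 and 3.52, against 3.51 in WT. The TET2KD array alone was low, by -1.50 and -1.46. The third Rpl13a probe was at 5.44, 5.43 and 5.24, against 5.60 in WT, a difference of -0.16 in TET2KD. The pair overlaps in sequence and counts as 1 place on the transcript. Rpl30 A_66_P125437 was at 2.39 in TET2KD, 3.63 in JAK2V617F and 3.99 in double mutant cells, against 3.66 in WT, so again the TET2KD array alone was low, by -1.27. The other Rpl30 probes differed by -0.25 and -0.26 in TET2KD. None of the 3 probes was low in the double mutant, which also carries the knock down: against JAK2V617F they differed by -0.23, -0.23 and 0.36.

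**Figure D4:**
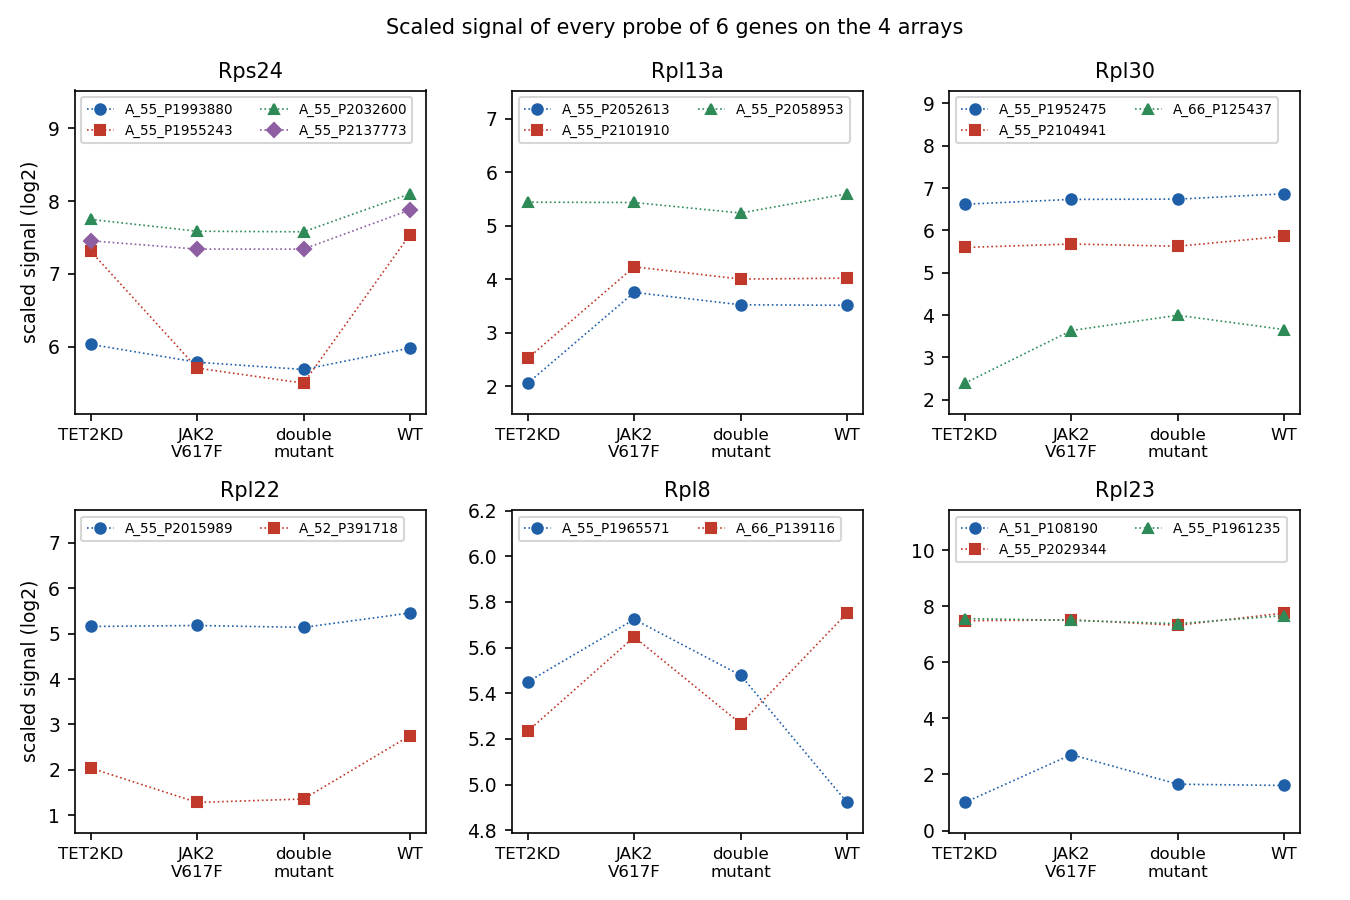
The scaled signal (log2) of every probe of Rps24, Rpl13a, Rpl30, Rpl22, Rpl8 and Rpl23 is plotted on the TET2KD, JAK2V617F, double mutant and WT arrays, 1 value per array. Dotted lines only join the values of 1 probe, and the y axes differ between panels. One Rps24 probe is at 5.70 and 5.50 on the arrays with JAK2V617F and above 7 on the others, and the downstream Rpl13a probes and 1 Rpl30 probe are low on the TET2KD array alone.

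Rpl22, a large-subunit protein needed for T cell development in mice, was measured by the probe with the TAG stop codon and by a probe further downstream. The downstream probe stood at 2.04 in TET2KD, 1.28 in JAK2V617F and 1.36 in double mutant cells, against 2.75 in WT, differences of -0.71, -1.47 and -1.40. The other probe stood at 5.16, 5.18 and 5.14, against 5.46 in WT. All mutant arrays were below WT by both probes. Rpl8, near the peptidyl transferase centre, was split: A_55_P1965571 stood at 5.45, 5.72 and 5.48, against 4.92 in WT, and A_66_P139116 at 5.23, 5.65 and 5.27, against 5.75 in WT. The first probe was above WT in every mutant, by 0.53, 0.80 and 0.56, the largest positive values among the 160 brighter probes, while the second was below it. Rpl15 also split, with A_66_P140976 at 4.23, 4.38 and 4.27, against 3.91 in WT, and A_55_P1990457 at 6.11, 6.47 and 6.46, against 6.49 in WT.

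Of the 188 probes, 28 had a mean level below 3, and they held every ribosomal protein probe at least 2-fold higher than WT (3 in TET2KD, 4 in JAK2V617F and 5 in double mutant cells). Their SD was 1.02 in TET2KD (22 tested), 1.06 in JAK2V617F (24 tested) and 1.09 in the double mutant (25 tested), against 0.24 in each comparison for the 160 brighter probes. They belong to 26 genes, and only 7 of the 83 genes had no brighter probe. Rpl21 A_55_P2056521 stood at 0.98 in TET2KD, -2.42 in JAK2V617F and -1.37 in double mutant cells, against -2.41 in WT, while the bright probe of Rpl21 stood at 5.65, 5.71 and 5.57, against 5.83 in WT. Rpl6 A_55_P2043639 was at 1.61, 0.49 and 2.67, against 0.54 in WT, and its other 3 probes were lower than WT in every mutant. These 2 probes were the only ribosomal protein probes at least 2-fold different in the same direction with the TET2 knock down on both backgrounds. Rpl14 A_51_P232858 was at 1.40, 1.85 and 0.90, against 0.28 in WT. Rpl23 A_51_P108190, the only ribosomal protein probe with repeated spots, was at 1.003, 2.71 and 1.65, against 1.61 in WT, with an SD of 0.053 to 0.083 over its 10 spots on each array. That probe lies downstream of the other Rpl23 probes, which differed from WT by -0.44 to -0.11 across the mutants. Rps25 A_52_P436318 was at 0.13, 0.02 and 0.24, against -0.58 in WT, and Rps27a A_55_P2025173 at -2.27, -1.52 and -2.56, against -2.02 in WT.

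A few probes were above background on only part of the arrays, and their folds are lower bounds set against the lowest signal called above background. Rps4l A_55_P2001628, which the files pair with a non-coding RefSeq transcript, stood at -2.12 in TET2KD, below background in JAK2V617F, at -2.66 in the double mutant and at -0.10 in WT. It was at least 8.68-fold lower in JAK2V617F than in WT, with differences of -2.02 in TET2KD and -2.56 in the double mutant. All mutants were below WT. Rpl21 A_52_P653937 was above background in JAK2V617F and the double mutant only, at least 4.60-fold and at least 3.89-fold higher than WT. Rps15a A_52_P491433 was above background on the same arrays, at least 1.90-fold and at least 1.39-fold higher than WT. Both arrays with JAK2V617F thus measured these probes and neither array without it did.

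Paralogs of ribosomal proteins replace or accompany their relatives in some tissues. Rpl22l1, the paralog whose mRNA Rpl22 is known to repress in mice, stood at 2.28 in TET2KD, 1.91 in JAK2V617F and 2.31 in double mutant cells, against 2.82 in WT, and was lower in all 3 mutants by -0.54, -0.91 and -0.51. Rps27l, a p53 target in human cells, stood at 1.07, 2.40 and 2.27, against 1.93 in WT. It was lower in TET2KD by -0.85, higher in JAK2V617F by 0.47 and in the double mutant by 0.34, and 1.20 above TET2KD in the double mutant. Rpl7l1 was at -1.89, -1.50 and -1.74, against -1.70 in WT. Rpl10l, a testis paralog, was at -2.49, -2.87 and -2.86, against -2.43 in WT, and the muscle paralog Rpl3l and Rpl39l were not above background.

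The genes tied to human blood disease followed the rest. Rps14, the mouse counterpart of the gene lost in the 5q- syndrome, stood at 5.75 in TET2KD, 5.51 in JAK2V617F and 5.45 in double mutant cells, against 6.13 in WT. It was below WT in all 3 mutants, by -0.39, -0.62 and -0.69, and ranked among the 8 lowest probes above background on all arrays in JAK2V617F and the double mutant. The 19 Diamond-Blackfan genes on the list had 42 probes. Of 41 tested in TET2KD 37 were below WT (median -0.35), of 42 in JAK2V617F 36 (median -0.21), and of 42 in the double mutant 38 (median -0.34). Of these 42 probes 0 were 2-fold higher than WT, and the Rps24 probe above was the only 1 that was 2-fold lower. Over all tested probes the shares were 17.6% and 20.6% in TET2KD, 16.1% and 16.4% in JAK2V617F, and 16.3% and 17.5% in the double mutant. Few bright probes of any gene passed 2-fold: 1.39%, 1.58% and 2.57% of the 1516 others did so in either direction. The values below are for probes above background on all 4 arrays. Rps19, the gene most often mutated in the human disease, stood at 4.09, 4.20 and 4.15, against 4.50 in WT. The 3 lowest in TET2KD were Rps10 A_66_P140711 (-0.81), Rps28 (-0.63) and Rps10 A_55_P2051047 (-0.61). The highest in TET2KD were Rpl31 A_51_P452820 (0.36), Rpl15 A_66_P140976 (0.31), Rps24 A_55_P1993880 (0.05) and Rpl27 A_55_P2048684 (0.01). After the low Rps24 probe, the lowest in JAK2V617F were Rps24 A_55_P2137773 and A_55_P2032600 (-0.54 and -0.52) and Rps28 (-0.46), and in the double mutant Rps27 A_55_P2024322 (-0.55) and the same Rps24 probes (-0.54 and -0.52). The highest probes in JAK2V617F were of Rpl15 (0.47), Rpl31 (0.17), Rpl27 (0.11) and Rpl11 (A_55_P1967076, 0.07), and the lowest Rpl11 probe was at -0.21. In the double mutant Rpl31 (0.40), Rpl15 (0.36) and Rpl27 (0.10) were above WT.

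Rpl5 and Rpl11 bind MDM2 together with the 5S ribosomal RNA. Rpl5 stood at 4.84 in TET2KD, 4.79 in JAK2V617F and 4.62 in double mutant cells, against 4.86 in WT. Rpl11 stood by A_55_P1967076, 1 of its 3 probes, at 3.80, 4.21 and 3.90, against 4.14 in WT. The differences of the 3 Rpl11 probes from WT ran from -0.49 to -0.34 in TET2KD and from -0.21 to 0.07 in JAK2V617F. In the double mutant they ran from -0.32 to -0.24. Cdkn1a, the p53 target that encodes p21, was above background in the 3 mutants but not in WT by its brightest probe, at -0.06, 1.37 and 1.54. A second Cdkn1a probe was below background in TET2KD and stood at -2.29 in JAK2V617F and -2.05 in double mutant cells, against -2.61 in WT. Mdm2 stood at 1.92, 1.74 and 1.77, against 1.64 in WT. Trp53 stood at 2.62, 3.79 and 3.15, against 3.20 in WT.

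Genes that work with the ribosomal proteins did not share one direction. Ribosomal proteins with other names, such as Rpsa and Fau, had 10 probes, with medians of -0.39 in TET2KD, -0.17 in JAK2V617F and -0.28 in double mutant cells against WT. Of the 10 probes, 10, 7 and 10 were below WT. The 14 other TOP mRNA genes on the list, elongation factors and other translation genes, had medians of -0.20, 0.25 and -0.03 over 28 probes, so in JAK2V617F they stood above WT (21 of 28 probes) while 142 of 184 ribosomal protein probes stood below it. Eef1g, a subunit of the elongation factor that delivers tRNA, stood at 5.67, 6.39 and 6.26, against 6.06 in WT, and Npm1, a nucleolar chaperone, at 6.77, 7.28 and 7.09, against 6.85 in WT, each by its brightest probe. All 3 Eef1g and all 5 Npm1 probes were above WT in JAK2V617F. The 32 ribosome biogenesis genes had medians of -0.45 (46 probes), 0.22 (47 probes) and 0.11 (46 probes). Of them, 8 probes were at least 2-fold higher and 9 lower in TET2KD, 11 and 4 in JAK2V617F, and 13 and 7 in the double mutant. As shares of the tested biogenesis probes these are 17.4% higher and 19.6% lower in TET2KD, 23.4% and 8.51% in JAK2V617F, and 28.3% and 15.2% in the double mutant, against 17.6% and 20.6%, 16.1% and 16.4%, and 16.3% and 17.5% of all tested probes. Sbds, the ribosome maturation factor mutated in Shwachman-Diamond syndrome, stood at 2.07, 0.86 and 1.42, against 3.33 in WT, and Rrs1 at 3.03, 3.17 and 2.96, against 1.61 in WT. Mitochondrial ribosomal protein genes had medians of -0.24 (103 probes), 0.34 and 0.30 (104 probes each), with 18 probes at least 2-fold higher and 26 lower in TET2KD (17.5% and 25.2%), 24 and 7 in JAK2V617F (23.1% and 6.73%), and 25 and 15 in the double mutant (24.0% and 14.4%), to be read against the same shares of all tested probes. The 12 regulators of ribosome synthesis had medians of 0.01, 0.49 and -0.14 over 19 probes. Of the 19, 5 probes were at least 2-fold higher and 5 lower in TET2KD (26.3% each). In JAK2V617F 4 were higher and 3 lower (21.1% and 15.8%), and in the double mutant 4 and 2 (21.1% and 10.5%). These few probes are to be read against the same shares of all tested probes. By the brightest probe of each gene, Myc stood at 3.06, 3.91 and 4.03, against 3.35 in WT, Mycn at 3.31, 3.06 and 2.35, against 4.08 in WT, and Larp1 at 1.74, 3.61 and 3.32, against 4.10 in WT. Mtor, the kinase of the mTOR pathway, stood at -1.03, -0.37 and -0.53, against -2.91 in WT, and Rragc, a GTPase that activates it, at -1.76, 0.94 and 0.77, against -2.43 in WT. The second probe of each of Larp1, Mtor and Rragc did not follow the first throughout. For Larp1 it stood at 2.22, 1.12 and 1.38, against -0.06 in WT, so the Larp1 probes had opposite directions in every mutant. The second Mtor probe was at -2.93 in JAK2V617F, against 0.12 in WT, and was below background in TET2KD and the double mutant, opposite to the first. The second Rragc probe was below background in TET2KD and stood at -1.92 in JAK2V617F and -2.22 in double mutant cells, against -2.52 in WT. These genes therefore have no single direction on the arrays, apart from Rragc in JAK2V617F and the double mutant, where both probes were above WT.

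**Figure D5:**
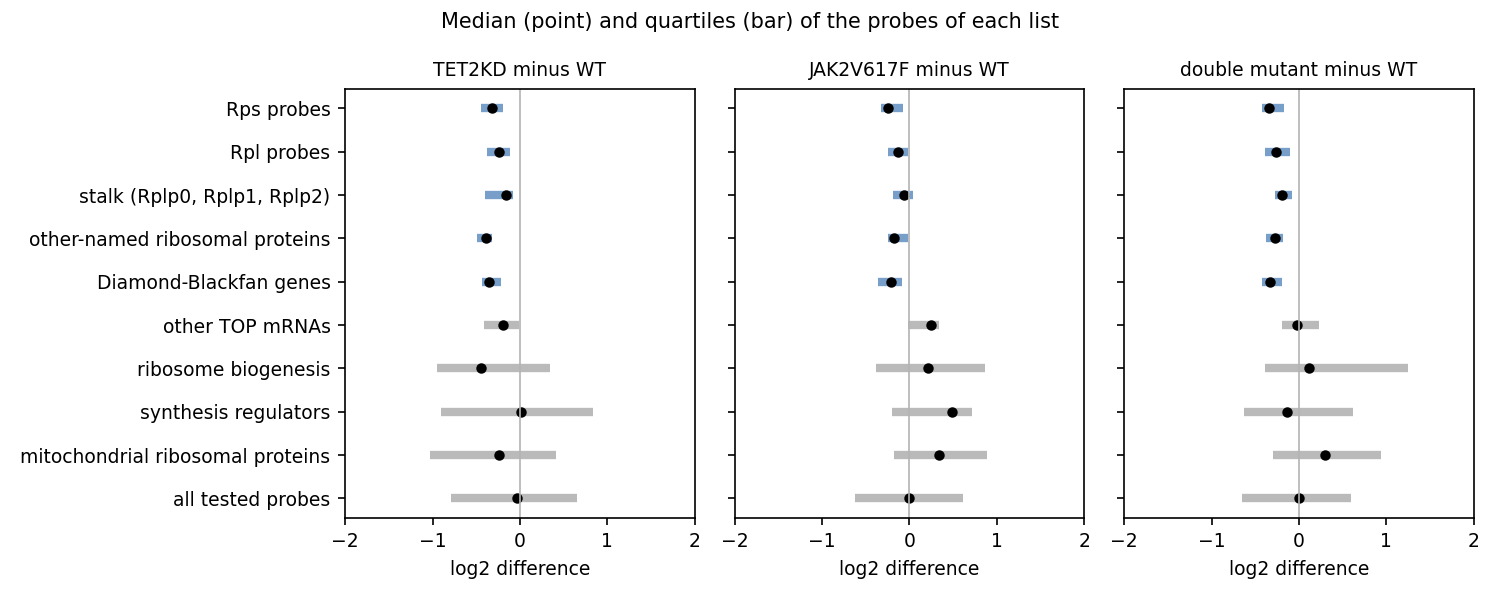
Medians (points) and lower to upper quartiles (bars) of the log2 difference from WT are plotted for the probes of each gene list in TET2KD, JAK2V617F and the double mutant. Blue bars are cytosolic ribosomal proteins and grey bars other lists and all tested probes. The blue bars are short with medians from -0.39 to -0.07, while other TOP mRNAs and mitochondrial ribosomal proteins have medians of 0.25 and 0.34 in JAK2V617F.

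The bases around the transcription start sites of ribosomal protein genes were searched for the 5 letters CTTTC, part of the pyrimidine tract, chosen after the sequences had been seen. The RefSeq table (GRCm38.p6) holds 73 start sites for 61 of the 83 gene names. Within 20 bases on either side of the start, 26.0% of the 73 carried CTTTC on the transcribed strand, against 5.49% of all 32851 start sites. On the opposite strand the shares were 5.48% and 4.86%. The examples below, with CTTTC in capitals, are Rpl13a at chr7:45128726-45128765 on the minus strand, Rps10 at chr17:27635225-27635264 on the minus strand, Rpl28 at chr7:4792945-4792984 on the plus strand and Rpl38 at chr11:114668560-114668599 on the plus strand.
Rpl13a start: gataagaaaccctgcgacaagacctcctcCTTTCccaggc
Rps10 start: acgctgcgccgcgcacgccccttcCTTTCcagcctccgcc
Rpl28 start: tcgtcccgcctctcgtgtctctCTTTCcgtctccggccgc
Rpl38 start: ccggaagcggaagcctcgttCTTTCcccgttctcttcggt

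Probes of the 19 genes with CTTTC in this window had medians of -0.21 in TET2KD (39 probes), -0.15 in JAK2V617F and -0.22 in double mutant cells (40 probes each) against WT. Probes of the 42 genes with a start site and no CTTTC had medians of -0.28, -0.19 and -0.29 (89 probes each). The difference between the sets was not tested.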

How the data were processed

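Sorted LSK cells gave total RNA (Trizol), which was amplified (NuGEN Ovation Pico) and labelled with Cy3 for 1-colour arrays, per the labels' protocols. Agilent Feature Extraction 10.7.3.1 made the deposited processed intensity values, with background subtracted, per the file headers and the submitters' processing notes, and probe positions are on mm9. The deposited mean and background intensity were used for the normexp alternative only. The deposited series matrix holds log2 values that equal log2 of the processed signal minus 1 constant per array (0 of 55249 single-spot probes off by more than 0.001), with genes not centred. Its column medians were -2.63 in TET2KD, -2.60 in JAK2V617F, -2.60 in the double mutant and -2.64 in WT. All 4 arrays lay on 1 slide with 1 scan, per the file headers, so neither could be a batch.

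The level of a probe is log2 of its processed signal minus log2 of the 75th percentile of non-control spots on that array. Outlier spots (162 to 199 per array) were dropped and spots of 1 probe averaged. A probe entered a comparison when it was well above background on at least 1 of its 2 arrays. A side below background was set to the lowest signal called above background there, or its own if higher. A factor of 2 was the call. The number of arrays limits the precision. Where levels of several probes are given, they are not set against each other. An additive model (limma 3.58.1, R 4.3.3, Benjamini-Hochberg over all tested probes) used the values without that floor. It was also run on simulated data with planted effects, independent noise and no interaction. That run does not show its power on these arrays. Alternatives were background correction, scaling, probe filter, gene summary, the series matrix and a 3-fold call.

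Named probes were, among those above background on all 4 arrays, the 8 largest differences each way from WT, the 6 largest each way for the double mutant against each single mutant and for the additivity term, and the 6 brightest and 6 dimmest. Genes whose probes differed by at least 1, probes above background on part of the arrays, and the stalk, paralog, MDM2-binding and 5q- lists were named too, with the 4 largest each way of the Diamond-Blackfan list. Rps19, the other probes of named genes, the genes of the related lists and the promoter examples were chosen after their values or sequences were seen. The members and lists were chosen with earlier results of these data known. Some of the genes that this rule names are not reported here.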

Additional observations from a re-analysis of the deposited data

How the results depend on the processing

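Under 10 alternatives the medians of the 3 comparisons with WT and of the double mutant against JAK2V617F stayed below 0, that of the additivity term stayed above 0, and that of the double mutant against TET2KD took either sign. Their size moved with the scaling: centring on equally bright probes gave -0.0946 for TET2KD against WT, where the main value was -0.26, and -0.09 for JAK2V617F against WT, where it was -0.17. Medians ranged from -0.30 to -0.09 in TET2KD, -0.17 to -0.09 in JAK2V617F and -0.30 to -0.17 in the double mutant, each against WT, from -0.10 to -0.04 in the double mutant against JAK2V617F from -0.06 to 0.07 against TET2KD, and from 0.03 to 0.22 for the additivity term. The counts past 2-fold are small and moved more. The numbers of higher probes are given in the order TET2KD, JAK2V617F and double mutant against WT, then double mutant against JAK2V617F and against TET2KD. With normexp they were 1, 1, 1, 1 and 5, with the mean over a gene's probes 1, 0, 0, 0 and 1, and with the brightest probe 0, 0, 0, 0 and 1. Calls over all tested features moved with these settings too. In TET2KD against WT, 2250 of 32199 probes were higher and 2575 lower with normexp, against 5658 and 6641 at the main setting. Higher probes with normexp were 2171 of 33672 in JAK2V617F and 2093 of 33507 in the double mutant, each against WT. Against JAK2V617F the double mutant had 1411 of 33983 higher, and against TET2KD 2158 of 32923. Of 22174 genes, 3438 were higher and 4133 lower with the mean, and 3573 and 4167 with the brightest probe. With the mean, 3226 and 3334 of 23007 genes were higher and lower in JAK2V617F against WT. In the double mutant they were 3322 and 3586 of 22959 against WT, 2785 and 2845 of 23205 against JAK2V617F, and 4018 and 3556 of 22620 against TET2KD. With the brightest probe, these comparisons gave 3354 and 3461, 3508 and 3680, 2889 and 2952, and 4022 and 3610 of the same totals. Only probes above background on both arrays gave 3 in the double mutant against WT and 5 against TET2KD. There 3154 of 25106 and 3027 of 24553 of all tested probes were higher. The 3-fold call gave 1, 1 and 3 against WT and 3 for the double mutant against TET2KD, given here without a share of all tested probes. In the same order, lower probes numbered 2, 1, 1, 0 and 0 with the gene mean and 1, 1, 1, 0 and 0 with the brightest probe, where fewer features were tested (81 ribosomal protein genes). Normexp gave 0 lower in the double mutant against JAK2V617F, where 1609 of 33983 of all tested probes were lower. The 3-fold call also gave 0 lower there and 1 lower in TET2KD, again without a share of all tested probes. The additive model called 0 ribosomal protein probes under all 4 of its alternatives. Of 300 values of 10 named probes under 6 alternatives, 297 kept their side of 2-fold and 0 changed sign; the other 3, all with normexp, were Rps4l in TET2KD against WT (-0.89) and Rpl23 A_51_P108190 in JAK2V617F against WT (0.998) and in the double mutant against JAK2V617F (-0.94). No paired analysis was possible because each genotype has 1 array. Leaving out an array would leave its genotype without a value. Dim probes are limited by their signal over background.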
